A study of Mus musculus with 6 samples.

Results

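Runx1, Erg, Fli1, Etv6, Myb, Hhex and Ikzf1 encode 7 transcription factors of blood stem and progenitor cells, and their transcripts were followed here after transforming growth factor β1 (TGF-β1) was added to mouse Lhx2 cells. The members were found by gene symbol, through the RefSeq transcript that each array probe names. All 7 were on the array, with 11 probes between them, and all 11 were well above background on each of the 6 arrays, out of 29190 genes and transcripts tested. Lhx2 cells are a progenitor-like blood cell line that depends on forced Lhx2, a LIM-homeobox gene, and grows with stem cell factor and interleukin 6, so they model stem and progenitor cells as an engineered line. Both groups went without serum overnight. The 3 control samples then had no treatment and the 3 others had TGF-β1 at 10 ng/ml, and RNA was taken after 2 h in 3 independent harvests. Samples of the 2 groups that share a replicate number are referred to as a pair.

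RUNX1 binds DNA with its partner CBFβ and is needed for the first blood stem cells to form. ERG and FLI1 are related activators of the ETS family and ETV6 is an ETS repressor, and all of them act in stem cells or megakaryocytes. MYB keeps progenitors dividing and holds back their differentiation, HHEX is a homeobox repressor of early blood and endothelial cells, and IKZF1 (Ikaros) is a zinc-finger factor that opens the lymphoid path. TGF-β1 signals through receptor kinases and SMAD proteins and is known as a brake on the division of blood stem cells.

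Levels are given as relative intensity, the scanner software's processed signal of a probe divided by the 75th percentile of all signals on the same array. It compares arrays for 1 probe and does not rank transcripts against each other. Smad7, a direct TGF-β target that encodes an inhibitory SMAD, rose in every pair, by 11.7-fold, 12.3-fold and 11.3-fold in pairs 1, 2 and 3 (limma adjusted p = 0.00114). All 10 progenitor markers were measured, and their summed level was 145.5 to 162.2 untreated and 152.3 to 181.4 treated, higher in pairs 1 and 2 and lower in pair 3. The brightest was Cd34, the stem cell surface protein (49.3 to 53.9 untreated, 60.7 to 73.5 treated). Lhx2 is on this list too and was dim, at 0.052, 0.060 and 0.043 untreated and 0.043, 0.050 and 0.069 treated. Whether its probe reads the forced copy was not tested. The list had no common direction: 3 of 10 were higher in every pair (Cd34, Gata2 and Tal1), 4 of 10 were lower in every pair (Kit, Ptprc, Cd48 and Lmo2), and 0 passed the threshold. Of all genes, 14.1% were higher and 20% lower in every pair. These genes were named after their values were seen. The neutrophil granule gene Mpo was bright in both groups (352.7 to 388.9 and 358.4 to 365.9). Endothelial cells also use Erg, Fli1 and Hhex. Their 9 measured markers of 10, with Pecam1 the brightest (0.92 to 1.34 untreated, 1.02 to 1.28 treated), summed to 2.49 to 3.26 untreated and 2.92 to 3.45 treated, while Tek did not pass the filter on dim probes. The stromal and megakaryocyte sums followed the harvest, though not every marker of these lists did. The 10 stromal markers, led by Dcn, summed to 1.78 and 2.06 in pair 3 against 22.5 to 69.0 in the other pairs, and the 9 measured megakaryocyte markers, led by Pf4, to 24.2 and 22.4 against 64.3 to 76.9. For example, the stromal Lum (0.0589, 0.0621 and 0.0514) and the megakaryocyte Itgb3 (1.91, 2.28 and 1.87) changed little over untreated arrays 1, 2 and 3. On treated arrays 1, 2 and 3 Lum read 0.053, 0.062 and 0.071, and Itgb3 read 1.67, 2.50 and 2.62, highest in harvest 3. The granulocyte genes S100a8 and S100a9 were highest in harvest 3, at 2.84, 8.67 and 29.55 and at 11.5, 35.9 and 70.9 untreated. The part of these harvest differences in the results was not tested. Sums of the mast cell list (10 of 10 measured, brightest Cpa3), the granulocyte and monocyte list (9 of 10, Mpo), the erythroid list (7 of 10, Car1) and the lymphoid list (9 of 10, Thy1) ran from 30.7 to 44.7, 515.5 to 673.4, 1.14 to 1.42 and 4.13 to 4.66 untreated, and from 24.4 to 37.1, 527.7 to 619.7, 1.15 to 1.51 and 3.91 to 4.12 treated. Within pairs, the mast cell sum was lower after TGF-β1 in all 3 harvests (39.0 and 31.9, 44.7 and 37.1, 30.7 and 24.4). Of its 10 markers 5 were lower in every pair, as were 20% of all genes, with 0 past the threshold. The groups overlapped for Cpa3, Mcpt8, Hdc and Kit among these 5. The lymphoid sum was also lower in every pair (4.13 and 3.91, 4.48 and 3.98, 4.66 and 4.12). Much of this was Thy1 (2.05 and 1.90, 2.02 and 1.66, 2.66 and 2.22). The lymphoid list had no common direction, with 2 of its 9 measured markers lower in every pair, 2 higher and a median log2 change of -0.0046. The endothelial sum went the other way and was higher in every pair (3.26 and 3.45, 2.76 and 2.92, 2.49 and 2.99). Of its 9 measured markers 2 were higher in every pair and 0 lower. The mast cell and lymphoid sums thus had the direction of Myb, Hhex, Erg and Etv6, and the endothelial sum had the opposite one. The part of these sums in the differences of the members was not tested. In RNA from whole cultures, fewer cells of a type and less RNA per cell cannot be told apart.

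The factors did not move as a block. Runx1 was the 1 member higher after TGF-β1 on every array, at 1.50-fold. Myb, Hhex and Erg were lower on every treated array, at 1.54-fold, 1.38-fold and 1.29-fold, Etv6 was lower in every pair, and Fli1 and Ikzf1 had values of both signs over the pairs. None of the 7 changes passed an adjusted p of 0.05 in limma's moderated test over all genes, a line that 0.254% of all genes crossed (0.226% higher, 0.0274% lower), so these are measured differences and not calls. At an unadjusted p under 0.05 there were 4 of 7 (Runx1, Myb, Hhex and Erg), against 5.77% of all genes. With the replicate number as a block it was 5 of 7, with Etv6 added, against 10.9%. Again 0 passed after adjustment, where 0.651% of all genes did (0.531% higher, 0.12% lower). The block gave SEs of 0.13 for Runx1, 0.14 for Myb, 0.16 for Hhex, 0.12 for Erg, 0.13 for Fli1 and 0.11 for Ikzf1. Its limma adjusted p was 0.1955, 0.1994, 0.4063, 0.3766, 0.6835 and 0.9666 in that order. SEs and intervals given below are of the fit without a block unless another fit is named.

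**Figure D1:**
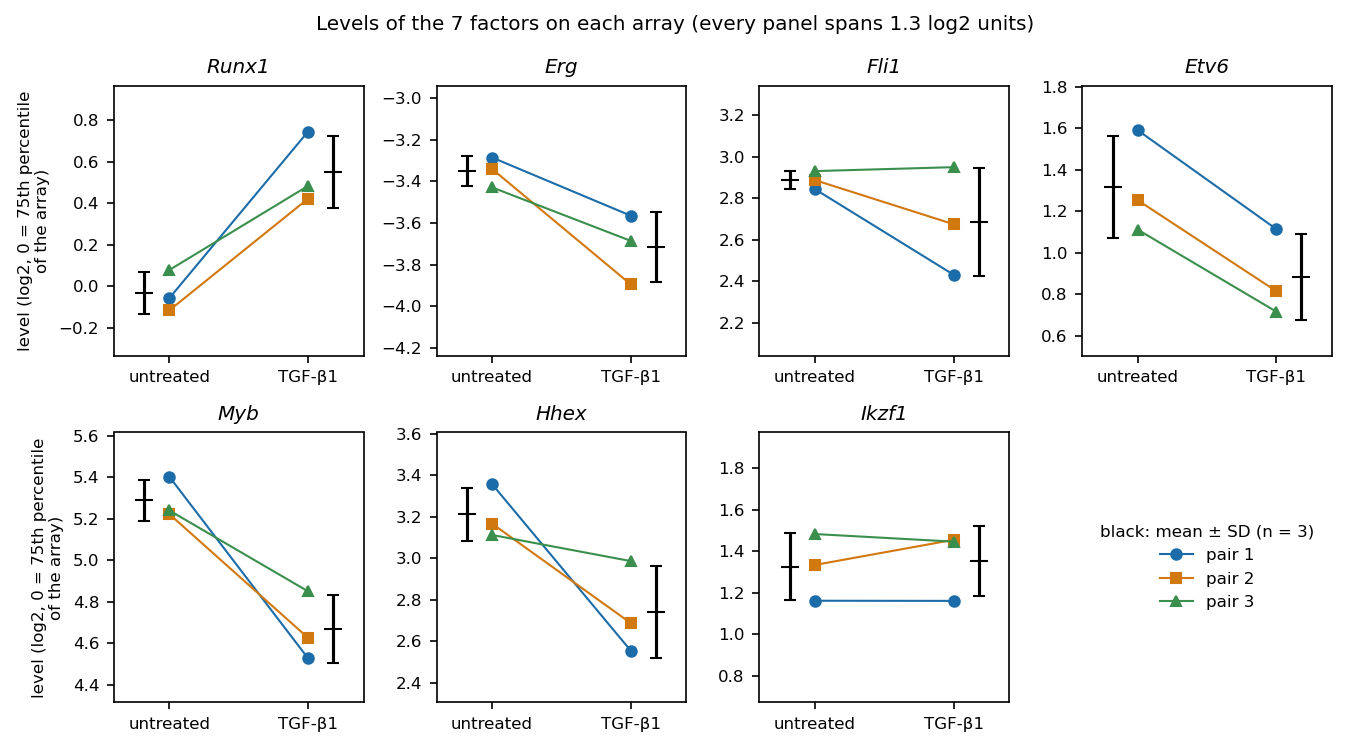
Level of each factor (log2 of relative intensity, vertical axis) on the untreated and TGF-β1 arrays, with a line for each pair and the mean ± SD of each group in black. Runx1 lies higher and Myb, Hhex and Erg lower on all 3 treated arrays, whereas the groups overlap for Fli1, Etv6 and Ikzf1.

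Runx1 stood at 0.962, 0.923 and 1.06 on untreated arrays 1, 2 and 3 and at 1.68, 1.34 and 1.40 on the treated arrays. The lowest treated value lay above the highest untreated one. The pairs gave 1.74-fold, 1.45-fold and 1.32-fold, and the fitted log2 change was 0.58 (SE 0.15, 95% confidence interval 0.23 to 0.93, n = 3 per group, limma adjusted p = 0.342). It was 0.73 on slide 1 and 0.57 on slide 2. Groups without overlap in the upward direction were found for 5.36% of all genes.

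Runx1 is transcribed from a distal and a proximal start, which drive different protein N-termini. It had 1 probe, on the transcript NM_009821, and the files give no probe position, so the share of each start in the change was not measured. Promoter windows of RefSeq genes (build GRCm38.p6, from 250 bases before to 50 bases after a start) were searched on both strands for short core motifs. For RUNX proteins, which bind as a pair with CBFβ, the letters searched were TGTGGT on either strand. For the ETS family, whose members share a winged-helix domain, they were CCGGAA on either strand. For SMAD proteins, which carry the TGF-β signal into the nucleus, they were CAGACA on either strand. For GATA factors, zinc-finger partners of these proteins in blood, they were AGATAA on either strand. For MYB, with its repeats of a helix-turn-helix fold, they were AACTG on either strand. No motif was part of another. The distal Runx1 window held 2 RUNX matches, both on the minus strand relative to the gene, at bases 29 to 34 and 37 to 42 after the start, and 2 MYB matches further upstream. The proximal window held 1 ETS match and no other. The stretches that carry the RUNX pair (chr16:92826026-92826055, minus strand) and the 250 bases before the proximal start (chr16:92697330-92697579, minus strand) are shown because they hold letters that RUNX and ETS factors read, with matches in capitals (ACCACA is the reverse complement of TGTGGT).
Runx1 distal start: tcataaacaACCACAgaACCACAagttggg
Runx1 proximal start: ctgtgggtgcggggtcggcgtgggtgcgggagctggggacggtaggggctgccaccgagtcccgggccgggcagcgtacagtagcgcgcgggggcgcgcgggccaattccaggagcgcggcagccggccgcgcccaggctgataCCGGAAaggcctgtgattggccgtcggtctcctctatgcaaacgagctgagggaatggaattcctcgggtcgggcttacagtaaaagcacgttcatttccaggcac
Of all 32851 windows, 16.8% held the RUNX letters, 14.9% the ETS letters, 21% the SMAD letters, 11.2% the GATA letters and 44.8% the MYB letters. The SMAD letters were in neither Runx1 window.

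Among the ETS members, Erg, an activator needed to maintain adult stem cells, gave a dim but detected signal. It was 0.103, 0.0988 and 0.0929 untreated and 0.0845, 0.0672 and 0.0777 treated, where the lowest signals counted as well above background were between 0.00656 and 0.0112. No treated array reached the untreated range. The pairs were 1.22-fold, 1.47-fold and 1.20-fold lower, with a fitted log2 change of -0.36 (SE 0.14, 95% confidence interval -0.71 to -0.02, limma adjusted p = 0.793). Groups that did not overlap in the downward direction were found for 5.05% of all genes.

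Fli1, the closest relative of Erg and a driver of megakaryocyte genes, was bright, with 7.18, 7.40 and 7.63 untreated and 5.40, 6.39 and 7.73 treated. Treated array 3 exceeded all untreated arrays, so the groups overlapped. The fitted log2 change was -0.20 (SE 0.17, 95% confidence interval -0.60 to 0.20). The dimmer Fli1 probe read lower in every pair (-0.18, -0.20 and -0.37; fitted -0.25, SE 0.15, and -0.14 without untreated array 3), so the probes differed most in pair 3, where the brighter one had 0.02. Changes between 1.52-fold lower and 1.15-fold higher lie within the interval of the brighter probe.

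Etv6, the ETS repressor that stem cells need in adult marrow, varied between harvests in both groups. It had 3.01, 2.38 and 2.16 untreated and 2.16, 1.76 and 1.64 treated. Untreated array 3 and treated array 1 had almost the same level, and the groups overlapped, but within each harvest the treated value was lower. The pair values were close to each other (-0.48, -0.44 and -0.40 on the log2 scale, SD 0.04), the tightest of the 7 factors. The fitted change was -0.44 (SE 0.19, limma adjusted p = 0.888), and the replicate block brought the SE to 0.10 and the 95% confidence interval to -0.70 to -0.17 (limma adjusted p = 0.225). The second probe gave -0.25, -0.16 and -0.58 in the pairs, with a fitted -0.33 (SE 0.22), which became -0.53 without untreated array 2 and -0.21 without untreated array 3.

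**Figure D2:**
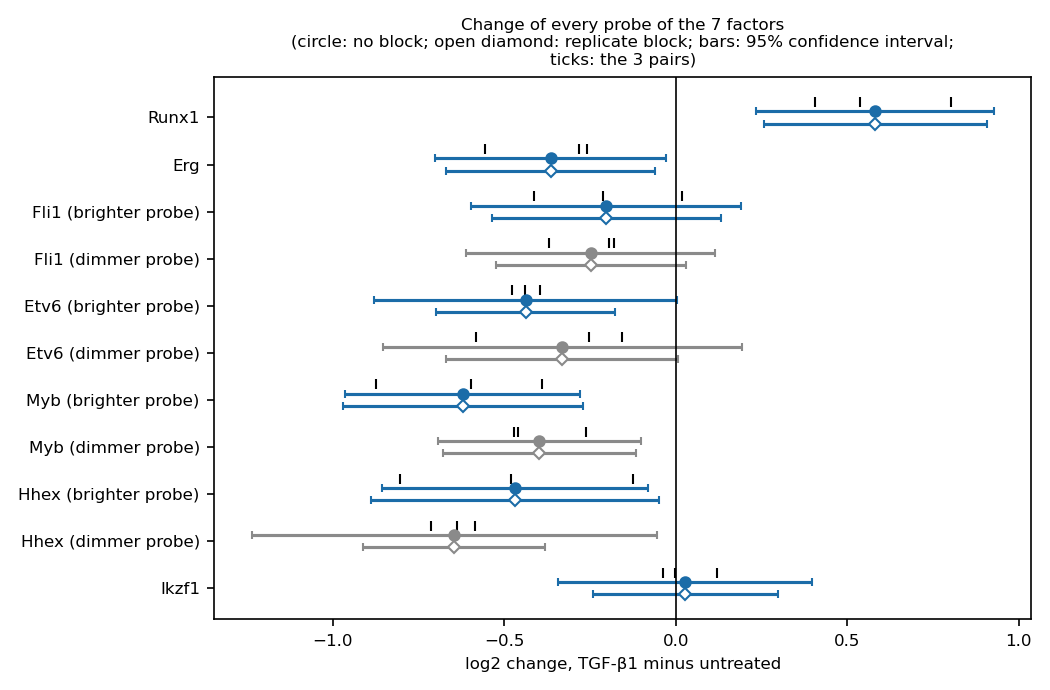
Log2 change (horizontal axis) of all 11 probes of the 7 factors, with 95% confidence intervals without a block (circles) and with the replicate block (open diamonds), and the 3 pair values as ticks. Every probe of Etv6, Myb and Hhex reads below 0 in all 3 pairs, and the brighter Hhex and Fli1 probes spread more widely over the pairs than the dimmer ones.

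Myb was lower on every treated array by both of its probes. The level on the brighter probe was 42.3, 37.4 and 37.8 untreated and 23.1, 24.7 and 28.9 treated. The gap between the groups was wider than either group's range. The pairs were 1.83-fold, 1.51-fold and 1.31-fold lower, and the fitted log2 change was -0.62 (SE 0.15, 95% confidence interval -0.97 to -0.27, limma adjusted p = 0.283). Within slides it was -0.79 on slide 1 and -0.48 on slide 2. With array weights, which give less weight to arrays that depart from the rest, the change was -0.69 and passed (limma adjusted p = 0.0279), in a fit that called 2.26% of all genes.

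The brighter Myb probe, A_51_P375543, is printed 10 times on each array, which shows the error of a single spot. The SD over the spots was 0.04 to 0.17 on the log2 scale. In pairs 1 and 2 all 10 treated spots lay below all 10 untreated spots. In pair 3 the brightest treated spot had 36.3 and the dimmest untreated spot 34.7, so the spots of that pair overlapped. The other Myb probe read 0.483, 0.489 and 0.518 untreated and 0.403, 0.353 and 0.377 treated, without overlap. Its fitted change was -0.40 (SE 0.12, limma adjusted p = 0.549), and its pair values of -0.26, -0.47 and -0.46 placed the smallest difference in pair 1 and not in pair 3.

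**Figure D3:**
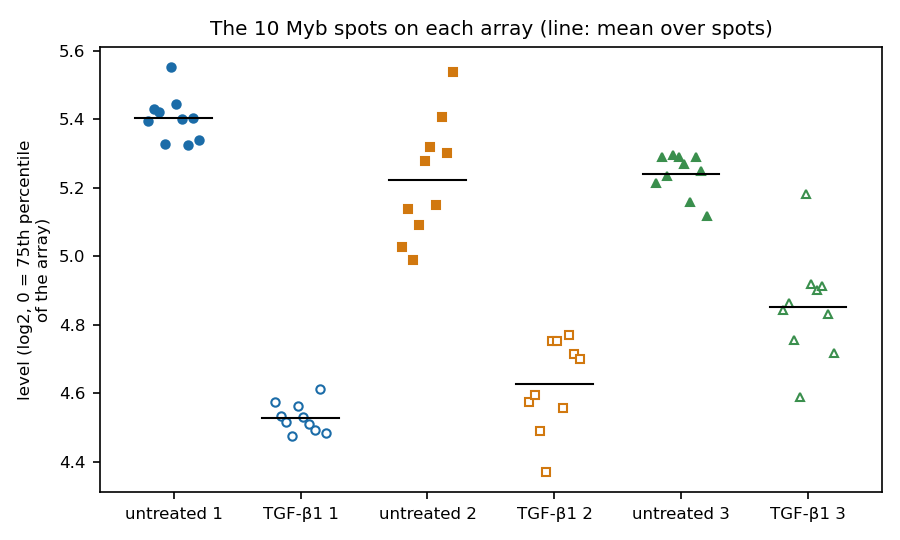
The 10 spots of the brighter Myb probe on each array (log2 of relative intensity, vertical axis), with the mean over spots as a line and treated arrays as open symbols. Treated spots lie below untreated spots in pairs 1 and 2, and 1 spot of treated array 3 reaches into the untreated range.

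Hhex was also lower on all treated arrays, by both of its probes. The brighter probe read 10.2, 8.98 and 8.65 untreated and 5.88, 6.44 and 7.93 treated, with pair values of -0.80, -0.48 and -0.13 on the log2 scale. Its fitted change was -0.47 (SE 0.16, 95% confidence interval -0.86 to -0.08, limma adjusted p = 0.672), and -0.68 on slide 1 and -0.33 on slide 2. The dimmer probe read 0.353, 0.217 and 0.319 untreated and 0.216, 0.145 and 0.205 treated. Untreated array 2 only just exceeded treated array 1, and harvest 2 was the lowest of its group in both groups. Its pairs differed by nearly the same amount (-0.71, -0.59 and -0.64, SD 0.06), and the SE of its fitted -0.65 went from 0.25 to 0.10 with the replicate block (limma adjusted p = 0.104 over all probes, 0.763 without the block).

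The starts of Myb and Hhex, whose probes all read lower on every treated array, are shown because both lie in GC-rich sequence and neither holds a match to the letters searched before its start. The 250 bases before the Myb start (chr10:21160985-21161234, minus strand, GRCm38.p6) are 81.2% G or C and those before the Hhex start (chr19:37434591-37434840, plus strand) 76%, against a median of 52.4% over all windows. No base is in capitals.
Myb: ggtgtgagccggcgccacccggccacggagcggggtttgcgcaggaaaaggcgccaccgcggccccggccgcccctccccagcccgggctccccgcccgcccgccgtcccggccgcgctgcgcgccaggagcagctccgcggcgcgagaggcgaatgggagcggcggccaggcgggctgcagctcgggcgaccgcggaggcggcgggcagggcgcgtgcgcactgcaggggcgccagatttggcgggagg
Hhex: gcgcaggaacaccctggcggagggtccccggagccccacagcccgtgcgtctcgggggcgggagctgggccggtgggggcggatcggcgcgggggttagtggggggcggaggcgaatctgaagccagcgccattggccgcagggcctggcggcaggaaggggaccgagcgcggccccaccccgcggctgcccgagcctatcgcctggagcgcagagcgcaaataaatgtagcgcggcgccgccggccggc
The Hhex window held 1 MYB match after the start. Of the other members, Etv6 had 3 MYB matches, the 3 windows of Erg had 1 MYB and 1 GATA match in all, and the second Ikzf1 window had 2 SMAD matches. The promoter table held 10 windows for 6 of the 7 members, with none for Fli1. High GC content was not particular to Myb and Hhex (75% and 75.7% over the whole window). The first Ikzf1 window had 81.3% and no match, and the proximal Runx1 window 69%. The Erg windows had 37.3% to 50.3%. A match is only a run of letters in the window.

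Ikzf1, the Ikaros gene, had the smallest difference. It stood at 2.24, 2.52 and 2.79 untreated and at 2.23, 2.74 and 2.72 treated. The groups overlapped, with harvest 1 lowest in both. The fitted log2 change was 0.028 (SE 0.16), and the 95% confidence interval of -0.35 to 0.40 allows changes from 0.786-fold to 1.32-fold.

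The size of the difference varied over the harvests. Of the 7 members, 5 had their largest difference in pair 1 and 2 in pair 2, and 6 had their smallest in pair 3, the exception being Ikzf1. Over all genes the largest difference was in pair 1 for 24.1%, in pair 2 for 20.3% and in pair 3 for 55.6%, and the smallest was in pair 3 for 21.1%. Both arrays of pair 1 were on slide 1, those of pair 2 on slide 2, and those of pair 3 on different slides; the part of the slide in this was not tested. The 4 second probes did not show this, with 2 of 4 largest in pair 3, and Smad7 had nearly equal values in all pairs. Over the 7 members the median log2 change was -0.36, with 5 negative and 2 positive values, against -0.01 over all genes. Groups did not overlap for 4 of 7 members, as they did for 10.4% of all genes, and 5 of 7 had the same direction in all pairs (1 higher, 4 lower), as did 34.2% of all genes (14.1% higher, 20% lower).

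Relatives and partners of these factors were compared as lists. Of 11 RUNX relatives and partners, 11 were measured and 0 passed without a block, against 0.254% of all genes. With the replicate block 1 rose, against 0.531% of all genes. This was Runx3, a RUNX factor of lymphoid and myeloid cells, which had 0.781, 0.565 and 0.674 untreated and 2.12, 1.46 and 1.48 treated. All treated arrays lay above all untreated ones, as for 5.36% of all genes. The log2 change was 1.31 (SE 0.21, limma adjusted p = 0.0885, and 0.0373 with the replicate block), with 1.44, 1.37 and 1.13 in the pairs. These values are of its brightest probe. The mean over its passing probes gave 0.95 without a block (limma adjusted p = 0.0939), so another Runx3 probe had a smaller change. With a slide term added to the block it no longer passed (limma adjusted p = 0.0537). Tle1, a Groucho-type co-repressor that RUNX proteins recruit, had 0.75 (SE 0.16, limma adjusted p = 0.212), and Tle3, of the same family, 0.42 (SE 0.18). The list median was 0.17, with 8 positive and 3 negative values, where all genes had 14189 positive and 15001 negative ones.

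Of 23 other ETS factors 22 were measured and 0 passed with or without the block, with 11 positive and 11 negative values and a median of 0.01. Elk3, a partner of serum response factor, went from 2.97, 2.62 and 2.32 to 5.39, 4.51 and 4.07, a log2 change of 0.82 (SE 0.17, limma adjusted p = 0.209). Erf, an ETS repressor switched off by ERK, had 0.76 (SE 0.24), with 1.14, 0.84 and 0.30 in the pairs. Both had treated levels above all untreated ones. The ETS list ran from -0.34 to 0.82.

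The 6 MYB and Ikaros relatives had a median of -0.12 and 0 members past the threshold in either fit. Ikzf2 (Helios), the Ikaros relative of stem and regulatory T cells, had 0.153, 0.137 and 0.123 untreated and 0.0868, 0.0911 and 0.0892 treated, which do not overlap. Its log2 change was -0.62 (SE 0.14, limma adjusted p = 0.236), close in size to that of Myb. Ikzf5 had -0.26 (SE 0.14).

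Of 22 textbook target genes of the 7 factors, 19 were on the array and measured, and 0 passed in either fit. They had 9 positive and 10 negative values and a median of -0.01. Gata2, which ETS factors activate in stem cells, had 0.76 (SE 0.25, limma adjusted p = 0.627), and the growth regulator Myc, a MYB target, had -0.58 (SE 0.22, limma adjusted p = 0.794), with groups that did not overlap for either. For Gata2 the separation was nil in practice, as untreated array 1 and treated array 3 both read 13.9. For Myc it was narrow, with 11.3 on untreated array 2 against 11.0 and 10.9 on treated arrays 1 and 3.

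**Figure D4:**
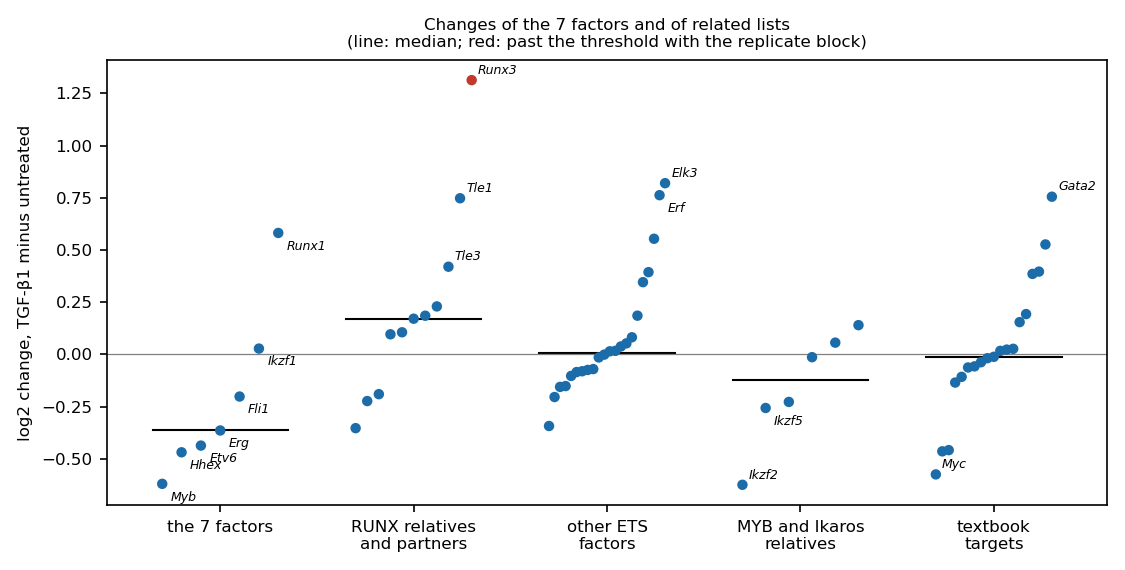
Log2 change (vertical axis) of each measured gene of the 7 factors and of 4 related lists, with the list median as a line. Runx3 alone, in red, passed the threshold with the replicate block.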

How the data were processed

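Per the labels, total RNA of 6 samples was Cy3-labelled for 1-colour Agilent arrays. Per the file headers, the array design was 014868 (mm8) and the software Feature Extraction 10.1.1.1. The deposited files give its processed intensity per spot, with 75th percentiles that differ between arrays. The authors' deposited log2 matrix followed the log2 median signal (r 0.99951 to 0.99989, medians 7.38 to 7.42), and the steps behind it were not given in the sources used here, where the submitters' processing notes name only limma.

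Each array had 43379 non-control spots (0 saturated, 43 to 101 flagged as outliers and left out), a 75th percentile of 794.2 to 1031, and 82.8% to 90.3% of 41174 probes well above background. Log2 processed signals were set relative to that percentile and averaged per probe. Probes well above background on at least 3 arrays entered (36382), named by unversioned RefSeq accession with the GRCm38.p6 table (23374 probes), used for no array coordinates. A gene took its brightest passing probe. limma 3.58.1 in R 4.3.3 (lmFit, eBayes) compared 3 with 3 arrays without covariates, with p-values adjusted by Benjamini-Hochberg over all 29190 genes and transcripts (probes over all probes) and a threshold of 0.05. The number of arrays limits the precision, and the fit was tested on simulated data.

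Same-numbered samples deviated together (r = 0.607, 0.777 and 0.546 over genes, against -0.725 to 0.0713 for others), and the numbers come from the labels, so they pair the samples. With the replicate number as a block 190 genes passed, against 74 without it. On slide 1 were untreated arrays 1 and 3 with treated array 1, and the rest were on slide 2. Alternatives were the background correction, scaling, authors' matrix, dim-probe filter, probe choice, replicate and slide blocks, array weights and leaving out each array. Normexp used the median signal, as the files carry no mean signal. The members and lists were chosen with earlier results of these data known. The rule named all members, up to 4 list genes past the threshold in either fit, the 2 of largest change among the other list genes detected on all arrays, the brightest marker of each list, and the 3 genes nearest in pattern to Myb and Runx1. Smad7 was chosen with its values known.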

Additional observations from a re-analysis of the deposited data

How the results depend on the processing

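Runx1, Erg, Fli1, Etv6, Myb and Hhex kept their direction under all 17 alternatives. Of 119 member values over these settings 115 had the direction given above. The 4 others were of Ikzf1, which had -0.0224 with the slide as a block and ran from -0.0545 to 0.12 with single arrays left out. The count of members past the threshold was 0 except with array weights, where it was 1 (Myb, -0.69); the cause was not tested. Over all alternatives the log2 change ran from 0.47 to 0.67 for Runx1, from -0.74 to -0.51 for Myb, from -0.64 to -0.37 for Hhex, from -0.58 to -0.30 for Etv6, from -0.52 to -0.25 for Erg and from -0.33 to -0.08 for Fli1. The number of all genes past the threshold, 74, became 5 with normexp, 44 with the array median and 171 with the authors' matrix values. It became 190 with the replicate block, 660 with array weights, and 7 to 23 with single arrays left out. The last of these fits also had fewer samples, and the causes of these differences were not tested. Normexp moved the median change of all genes to -0.16, and relative to that median Runx1 had 0.72, Myb -0.37, Hhex -0.29, Erg -0.25, Etv6 -0.19, Fli1 -0.0018 and Ikzf1 0.22. Runx3 passed in 4 of the 17 alternatives: the replicate block, the slide as a block (1.46), the authors' matrix values (1.26) and array weights (1.06). It did not pass with the slide term and the replicate block together (limma adjusted p = 0.0537), with normexp (0.58) or with any single array left out (0.221 to 0.333). Nor did it with quantile normalization (0.0727), the array median (0.257), no dim-probe filter (0.121), the filter on all 6 arrays (0.0626) or the mean of the passing probes (0.0939). Of the other list genes named, Tle1 (limma adjusted p = 0.0367), Elk3 (0.0418), Ikzf2 (0.042) and Myc (0.0456) passed with array weights, and Tle1 with the authors' matrix values (0.036). The second probes ran from -0.34 to -0.14 for Fli1, from -0.61 to -0.17 for Etv6, from -0.46 to -0.35 for Myb and from -1.06 to -0.47 for Hhex, and kept their direction. The order of the members by size changed between settings. Baseline levels moved by less than 1 SD under quantile normalization. Runx1, Erg and Ikzf1 each rest on 1 probe with 1 spot per array.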

Other observations

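The genes nearest to Myb and Runx1 in pattern were found by the Euclidean distance between centred log2 levels over the 6 arrays, among all tested genes with a symbol. The points share arrays and scaling, so the distances only describe. The 3 nearest to Myb were Ston2, an endocytic adaptor (distance 0.16), Sim2, a basic helix-loop-helix factor (0.19), and Hhex (0.21). Hhex, another of the 7 factors, was thus nearer to Myb than all but 2 of the genes compared. This holds for the brighter probe of each, which had its smallest difference in pair 3. The second Hhex probe (-0.71, -0.59 and -0.64 in the pairs) and the second Myb probe (-0.26, -0.47 and -0.46) did not. Ston2 had a log2 change of -0.61 (SE 0.13, limma adjusted p = 0.214) and Sim2 -0.67 (SE 0.15, limma adjusted p = 0.251), the latter at a relative intensity of only 0.0125 to 0.0233, close to the lowest signals counted as well above background.

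The 3 nearest to Runx1 were Rasa2, which encodes a RAS GTPase-activating protein (distance 0.10), the sorting nexin gene Snx18 (0.13) and Vasp, an actin regulator (0.14). Their log2 changes were 0.62 (SE 0.14), 0.60 (SE 0.14) and 0.52 (SE 0.15), and 0 of the 3 passed the threshold (limma adjusted p = 0.236, 0.311 and 0.468). Genes near in distance share the member's pattern by the choice itself.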
